A study of Homo sapiens with 20 samples.

Results

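The RNA of 10 human genes that set the pace of G1, the stretch of the cell cycle before DNA replication, was followed in WT and CD47- Jurkat cells. The genes were the CIP/KIP inhibitors CDKN1A (p21) and CDKN1B (p27), the INK4 inhibitors CDKN2C (p18) and CDKN2D (p19), the D-type cyclins CCND2 and CCND3, the E-type cyclins CCNE1 and CCNE2, and the kinases CDK4 and CDK6. They were taken by symbol as inhibitors, cyclins and kinases of G1, with earlier results of these data known. CDKN1A was chosen by its measured rise with activation. Activation was therefore part of the choice, and activation values of the members are given as a description with no test. All 10 were among the 60719 genes counted, and all 10 were among the 16327 genes that passed the low-count filter. The INK4 genes CDKN2A and CDKN2B, which are not members, had at most 1 count in any library.

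Jurkat is an established line of human leukemic T lymphoblasts. WT Jurkat cells were compared with JinB8, a somatic Jurkat mutant line that lacks the cell surface receptor CD47 (CD47-), and both lines were kept in serum-free medium for the treatments. Each line gave 1 untreated library (UT) at 1 h, and 3 libraries each, at 1, 3 and 6 h, came from cells plated on antibodies to CD3 and CD28 (CD3_CD28), from cells given the same antibodies with 1 µg/mL of the CD47 ligand thrombospondin-1 (CD3_CD28_TSP1), and from cells given TSP1 without the antibodies (TSP1). That gave 10 libraries per line, each condition sequenced once. JinB8 is a single mutant line, so loss of CD47 and any other difference of that line from WT Jurkat cells cannot be told apart. Untreated libraries analysed here were of 1 h only, so a change with time and the time spent on the plates in the new medium cannot be told apart either. P-values describe the spread between these libraries and not between separate mutant lines. As each condition had 1 library, the fit of time and treatment took their effects as additive on the log scale within a line. Its p-values rest on departures from additivity, not on repeats of a condition.

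D-type cyclins bind CDK4 or CDK6 and start the phosphorylation of the retinoblastoma protein, which releases E2F transcription factors, and E-type cyclins then act with CDK2 to complete entry into S phase. INK4 proteins bind CDK4 and CDK6 and keep the D-type cyclins away from them, whereas CIP/KIP proteins hold cyclin-CDK2 complexes inactive and are best known as brakes induced by stress (p21) or raised in resting T cells (p27). CDK6 and CCND3 are known as the main D-type kinase and cyclin of developing thymocytes and of T cell leukemia.

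CDK6 and CDKN2C each had 2 main annotated transcripts that begin at different start sites and share their coding exons. The isoform results on these genes, but not the gene counts, turn on how reads were divided between the 2. The RefSeq promoters (GRCh38.p14, 300 bases around the start) of those sites are shown because the 2 transcripts of each gene start there, together with that of CDKN1A. Capitals mark GGGCGG (GC box), CCAAT and CACGTG (E-box) read on either strand. CDKN2D and CCNE2 also had transcripts that share their coding exons and begin at different start sites, 80 and 1477 bases apart. The RefSeq table held 13 entries for 8 of the 10 members.
CDK6 upstream promoter, chr7:92836524-92836823, minus strand: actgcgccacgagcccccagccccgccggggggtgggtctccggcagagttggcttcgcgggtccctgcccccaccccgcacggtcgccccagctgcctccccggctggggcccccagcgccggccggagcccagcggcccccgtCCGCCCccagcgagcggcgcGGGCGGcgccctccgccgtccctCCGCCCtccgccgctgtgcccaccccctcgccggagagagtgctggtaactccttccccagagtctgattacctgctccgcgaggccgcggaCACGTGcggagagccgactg
CDK6 downstream promoter, chr7:92833910-92834209, minus strand: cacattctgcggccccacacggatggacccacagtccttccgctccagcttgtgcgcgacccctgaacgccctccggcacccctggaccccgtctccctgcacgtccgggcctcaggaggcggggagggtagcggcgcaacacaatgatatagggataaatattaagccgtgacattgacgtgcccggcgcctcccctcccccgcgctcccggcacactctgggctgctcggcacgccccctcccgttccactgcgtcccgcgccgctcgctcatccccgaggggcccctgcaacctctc
CDKN2C upstream promoter, chr1:50968456-50968755, plus strand: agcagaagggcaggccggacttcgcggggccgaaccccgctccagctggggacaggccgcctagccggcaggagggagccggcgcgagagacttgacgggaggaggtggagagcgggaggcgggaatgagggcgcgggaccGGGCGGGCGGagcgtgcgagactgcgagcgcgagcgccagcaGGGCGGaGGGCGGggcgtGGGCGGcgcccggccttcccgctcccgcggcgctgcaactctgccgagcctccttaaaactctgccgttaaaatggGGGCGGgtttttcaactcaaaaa
CDKN2C downstream promoter, chr1:50969995-50970294, plus strand: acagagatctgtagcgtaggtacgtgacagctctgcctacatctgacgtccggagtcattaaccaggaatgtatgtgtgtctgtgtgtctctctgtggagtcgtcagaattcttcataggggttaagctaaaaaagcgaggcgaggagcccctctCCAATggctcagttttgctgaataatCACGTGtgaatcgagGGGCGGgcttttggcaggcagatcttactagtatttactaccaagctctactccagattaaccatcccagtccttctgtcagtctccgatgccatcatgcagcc
CDKN1A promoter, chr6:36678464-36678763, plus strand: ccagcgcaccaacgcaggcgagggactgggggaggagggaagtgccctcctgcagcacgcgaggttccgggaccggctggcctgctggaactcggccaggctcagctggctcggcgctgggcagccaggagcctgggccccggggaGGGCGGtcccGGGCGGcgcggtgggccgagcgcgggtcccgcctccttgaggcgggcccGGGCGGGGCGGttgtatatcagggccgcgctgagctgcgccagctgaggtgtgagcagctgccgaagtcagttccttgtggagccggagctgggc

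The paired promoters differed in composition. The upstream CDK6 promoter had a GC content of 78.0% with 37 CpG dinucleotides, 3 GC boxes and 1 E-box, whereas the downstream one had a GC content of 68.7% with 29 CpG dinucleotides and matched none of the 7 motifs searched. For CDKN2C the contrast was wider, with a GC content of 71.3%, 37 CpG dinucleotides and 6 GC boxes upstream against 49.3%, 11 CpG dinucleotides and a single match each of the GC box, the CCAAT box and the E-box downstream. The CDKN1A promoter had a GC content of 74.3% with 29 CpG dinucleotides and 4 GC boxes. Over the 35116 promoters of the same length, the median was a GC content of 58.7% and 14 CpG dinucleotides. Of these promoters, GGGCGG was found in 45%, CCAAT in 34.6%, TATAAA in 11.5%, CACGTG in 7.26%, TTTNNCGC in 6.89%, TGANTCA in 7.71% and GGAAA in 61.2%, all read on both strands with overlapping matches counted. A match is a run of letters and not a measured site.

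Library totals ran from 16107921 to 31737616 counts. The CD47- CD3_CD28_TSP1 library at 3 h was the shallowest and stood furthest from libraries of its line and hour (median r 0.9798), and calls that changed when it was left out are given beside the results. CD47 RNA was 317 ± 42.1 CPM (counts scaled to a common library total) in WT and 147 ± 12.6 in CD47- cells (SD, n = 10 each), a log2 difference of -1.10, so the mutant line kept CD47 RNA at a lower level. All 12 T cell markers were detected in both lines and summed to 2260 to 3170 CPM in WT cells and 1880 to 3000 CPM in CD47- cells, with the widest gap at TRAC (184 CPM in WT against 21.8 in CD47- cells). Markers of other cells were near 0, with the B cell marker MS4A1 at no more than 4 counts in any library, myeloid markers summing to at most 1.45 CPM, fibroblast markers to at most 7.53 and epithelial markers to at most 3.74. The exception was CD79A, with means of 42.2 (WT) and 6.75 CPM (CD47-), and its part in the results was not tested. In bulk RNA, a different share of cells in G1 and a different amount of a transcript per cell cannot be told apart.

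The first comparison asked how the G1 genes stood in CD47- cells relative to WT cells over all conditions. CD47- cells held far more CCND2 and CDK6 RNA and less CDKN2C, CDKN1B and CCNE2 RNA. The test was edgeR's quasi-likelihood test on 10 libraries of each line, with p-values adjusted over all 16327 genes and calls at an adjusted p under 0.05. It called 6 of the 10 members, 2 higher and 4 lower, against 40.4% of all genes tested (19.8% higher, 20.6% lower). CDKN1A was among the 4, but libraries whose values chose it enter this fit, so its calls here and with time are counted, its values are given as a description and nothing is read from them. With a term for hour added, the fit brought 2 more calls, CCNE1 (-0.40, adjusted p = 0.0173) and CDK4 (0.17, adjusted p = 0.0238). The median log2 difference of the members was -0.39, that of all genes -0.01. The ranges of the lines were apart for 3 members (CCND2 and CDK6 higher, CDKN2C lower), and 11.5% of all genes were apart in this way (6.01% higher, 5.48% lower). Without the shallow CD47- library the same 6 members were called. With 10 members, these shares describe the genes named and not G1 genes as a class.

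**Figure D1:**
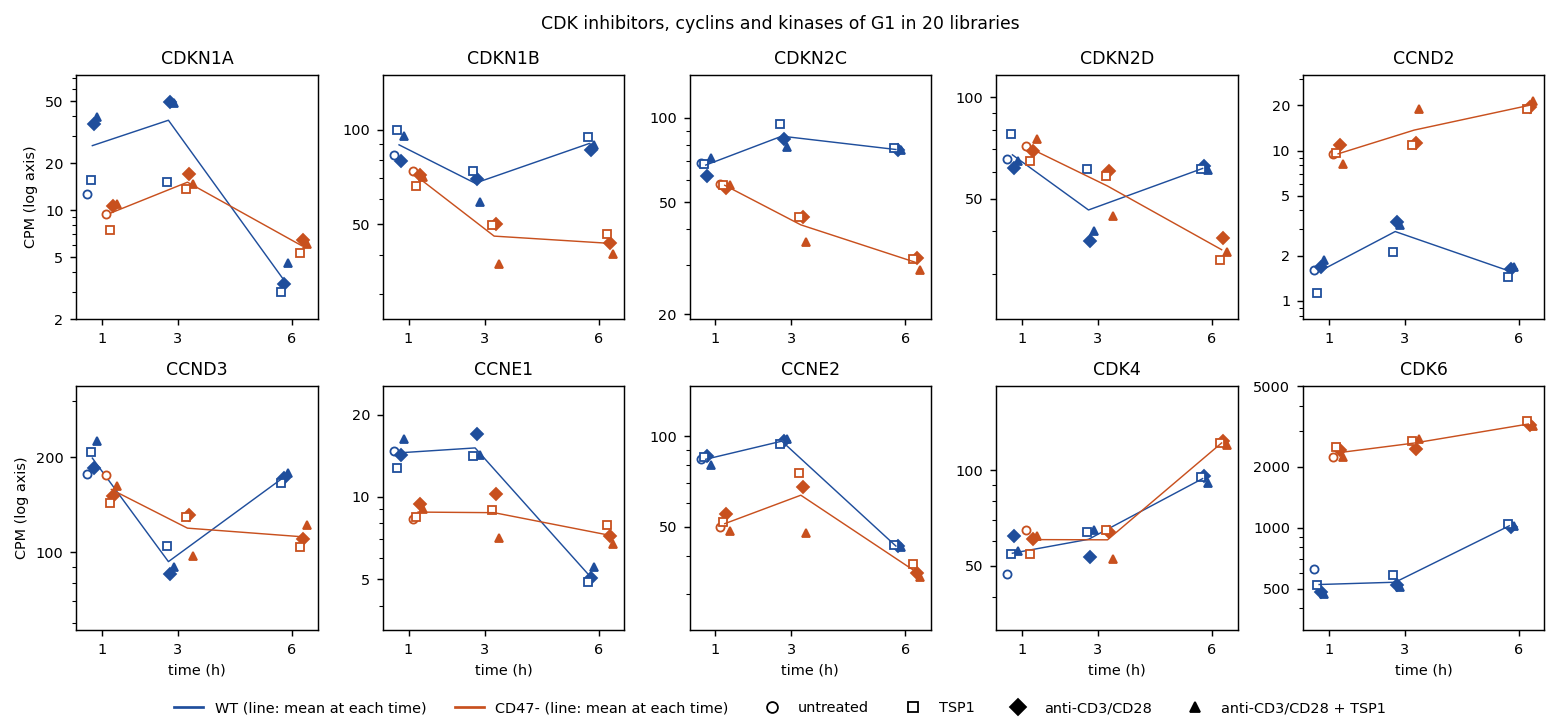
CPM of each of the 10 members in all 20 libraries (log axis), by line and hour, 1 point per library. CCND2 and CDK6 points of CD47- cells lie above all WT points, and CDKN2C points of CD47- cells lie below all WT points.

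CDKN1A (chr6:36676460-36687337, plus strand) encodes p21, the inhibitor of cyclin-CDK2 best known for its induction by DNA damage. Its values had a lowest of 3.00, a median of 15.4 and a highest of 49.5 CPM in WT cells, and of 5.28, 10.0 and 17.0 CPM in CD47- cells. The groups overlapped, and the widest spread was within WT cells, where the CD3_CD28 and CD3_CD28_TSP1 libraries at 1 and 3 h were high and all 3 libraries at 6 h were low. The log2 difference was -1.17 (SE 0.445), given as a description. Taken by pair of WT and CD47- libraries of 1 treatment and hour, it was negative in 7 of the 10 and positive in all 3 pairs at 6 h. It was -1.44 in the 6 pairs with antibodies to CD3 and CD28 and -0.35 in the 4 pairs without them. Its call was lost in either of these sets of pairs taken alone, when any of 11 of the 20 libraries was left out and with limma voom (-0.68).

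CDKN1B (chr12:12685498-12722369, plus strand) encodes p27, which accumulates in resting lymphocytes. Its lowest, median and highest values were 59.0, 84.8 and 99.8 CPM in WT cells and 37.5, 50.1 and 73.6 CPM in CD47- cells. The ranges overlapped, yet every one of the 10 matched pairs was lower in the CD47- library, and the log2 difference was -0.60 (SE 0.131, adjusted p = 0.000814). The call was lost in the 4 pairs without antibodies taken alone (-0.55, adjusted p = 0.0562).

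CDKN2C (chr1:50960745-50974634, plus strand) encodes p18, an INK4 inhibitor of CDK4 and CDK6. It ran from 62.1 through a median of 76.7 to 95.0 CPM in WT cells and from 28.8 through 44.2 to 57.9 CPM in CD47- cells. No CD47- library reached the lowest WT library, and the log2 difference was -0.77 (SE 0.132, adjusted p = 5.92e-05). CDKN2D (chr19:10566460-10569059, minus strand), which encodes the related inhibitor p19, ran from 37.55 through 61.6 to 77.8 CPM in WT cells and from 33.0 through 59.5 to 75.3 CPM in CD47- cells. Its ranges nearly coincided and its log2 difference of -0.11 (SE 0.160, 2 SE interval -0.43 to 0.21) was not called, with an adjusted p of 0.625 by edgeR.

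CCND2 (chr12:4269771-4305353, plus strand), the D-type cyclin induced by growth factor and cytokine signals in lymphocytes, was scarce in WT cells. It ran from 1.14 through a median of 1.68 to 3.35 CPM in WT cells, on 27 to 75 counts, and from 8.17 through 11.1 to 21.4 CPM in CD47- cells, on 200 to 526 counts. Every CD47- library was above every WT library, with a log2 difference of 2.82 (SE 0.229, adjusted p = 1.01e-09), which is 7.05-fold. A second annotated protein-coding gene without a symbol lies over most of CCND2 on the same strand, sharing 31592 bases of its span, and its mean count was 3.74 in WT and 108 in CD47- cells. How the authors' counting divided reads between the 2 was not tested. CCND3 (chr6:41934934-42050357, minus strand), the D-type cyclin that thymocytes depend on, ran from 85.2 through 174 to 224 CPM in WT cells and from 97.6 through 130 to 176 CPM in CD47- cells. It overlapped widely and was not called (log2 difference -0.26, SE 0.164, adjusted p = 0.217).

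Of the E-type cyclins, CCNE2 was called lower in CD47- cells, and CCNE1 was not called by this test, though it was with DESeq2, with a term for hour and when any of 3 libraries was left out. CCNE2 (chr8:94879770-94896678, minus strand) ran from 42.9 through 84.6 to 98.1 CPM in WT cells and from 34.1 through 49.1 to 75.2 CPM in CD47- cells. It was lower in all 10 matched pairs, with a log2 difference of -0.58 (SE 0.181, adjusted p = 0.013). That call was lost in the 6 pairs with antibodies taken alone (-0.61, adjusted p = 0.0761) and in the 4 pairs without (-0.50, adjusted p = 0.244). CCNE2 shares 1977 bases of its span with INTS8 (mean counts 2020 in WT and 1790 in CD47- cells), which lies on the other strand. It also shares 1146 bases with NDUFAF6 on that strand (547 and 430). As no strand setting was given, reads from these shared bases cannot be told apart. CCNE1 (chr19:29811991-29824312, plus strand) ran from 4.875 through 14.2 to 17.1 CPM in WT cells and from 6.71 through 8.38 to 10.25 CPM in CD47- cells, and the difference of -0.51 on the log2 scale (SE 0.212) had an adjusted p of 0.0581 by edgeR and of 0.0467 by DESeq2. As for CDKN1A, 7 of the 10 matched pairs were lower in CD47- cells and the 3 pairs at 6 h were higher.

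CDK6 (chr7:92604921-92836573, minus strand), the D-cyclin kinase of lymphoid and myeloid progenitors, was the member with the most counts in both lines. It ran from 469 through a median of 554 to 1039 CPM in WT cells and from 2235 through 2585 to 3354 CPM in CD47- cells. The lowest CD47- library was above the highest WT library, and the log2 difference was 1.99 (SE 0.165, adjusted p = 1.4e-09), which is 3.98-fold. A long noncoding gene on the same strand within CDK6 had mean counts of 97.0 and 381 in WT and CD47- cells. CDK4 (chr12:57747727-57756013, minus strand), its close relative, ran from 47.0 through 62.9 to 96.2 CPM in WT cells and from 52.6 through 64.3 to 124 CPM in CD47- cells. It was not called, with a log2 difference of 0.21 (SE 0.188, 2 SE interval -0.17 to 0.58, adjusted p = 0.407). CDK4 shares 911 bases of its span with MARCHF9 on the other strand (mean counts 496 and 503), and reads from those bases cannot be told apart either.

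**Figure D2:**
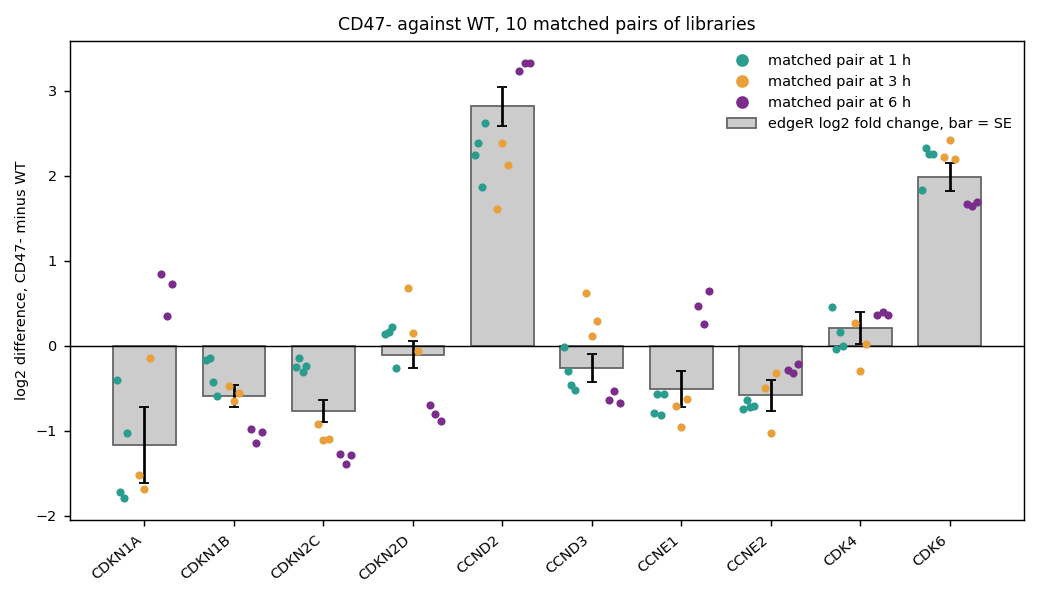
Log2 difference, CD47- minus WT, for each member over all 20 libraries, as a grey bar with its SE, and in each matched pair of libraries as points colored by hour. CCND2 (2.82) and CDK6 (1.99) lie above 0 in all 10 pairs, and CDKN2C, CDKN1B and CCNE2 lie below 0 in all 10.

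The difference between the lines was also taken at each hour alone, since the conditions of an hour are matched. At 1 h 8 members were called, 2 higher and 6 lower (49.2% of all genes tested were called at that hour). At 3 h 7 members were called, 2 higher and 5 lower, against 30.3% of all genes. At 6 h all 10 were called, 5 higher and 5 lower, against 59.6%. CDKN1A is counted at each hour, with nothing read from its calls. CDKN1A went from -1.44 and -1.31 at 1 and 3 h to 0.69 at 6 h on the log2 scale. CCNE1 did the same, from -0.72 and -0.78 to 0.50. CDKN2C moved the other way without crossing 0, from -0.24 at 1 h through -1.04 at 3 h to -1.32 at 6 h, and CDKN1B from -0.345 at 1 h through -0.55 to -1.04. The pooled differences of CDKN1A, CCNE1, CCND3 and CDKN2D thus average hours at which the sign differed, with CCND3 at -0.33, 0.36 and -0.60 and CDKN2D at 0.06, 0.24 and -0.79.

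Counts assigned to single annotated transcripts showed where in a gene the difference lay. Isoform counts are estimates in which reads shared by transcripts are divided by a model. Of 83 annotated isoforms of the members, 37 passed the filter and 7 were called, against 15.1% of all 55450 isoforms tested (7.51% higher, 7.55% lower). These were 2 each of CCND2 and CDK6, all higher, and 1 each of CDKN1B, CDKN2C and CCNE2, all lower in CD47- cells. DESeq2 called 8, the same 7 and the CDK4 form ENST00000546489. That form was higher in CD47- cells (log2 difference 0.96, adjusted p = 0.0354 by DESeq2 and 0.0735 by edgeR). The CCND2 form with the most counts in CD47- cells, ENST00000675468, at 56.3 ± 21.9% of CCND2 counts there (9.91 to 83.8%, n = 10), is annotated without a defined coding sequence. The other called form, ENST00000676411, encodes 289 residues and differed by 3.24 on the log2 scale (mean counts 11.1 in WT and 106.1 in CD47- cells, adjusted p = 0.000289 by edgeR).

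By these estimates, the CDK6 transcript from the downstream promoter, ENST00000265734, whose start lies 42 bases from the RefSeq one, carried most of the gain. Its mean count was 9882 in WT and 56070 in CD47- cells, a log2 difference of 2.51 (SE 0.135, adjusted p = 2.63e-11 by edgeR). The transcript from the upstream promoter, ENST00000424848, had mean counts of 6375 and 8363, a log2 difference of 0.45 (adjusted p = 0.378 by edgeR). That pooled value averaged unlike hours, with 153 CPM in WT and 222 in CD47- cells at 1 h, 184 and 423 at 3 h, and 490 and 483 at 6 h. The start sites lie 2656 bases apart and both transcripts encode the same 326 residues. The downstream form made up 63.9 ± 9.64% of CDK6 counts in WT (49.3 to 77.7%) and 87.0 ± 3.78% in CD47- cells (82.3 to 92.5%, SD, n = 10 each). The ranges did not meet, and the share was higher in all 10 matched pairs (exact two-sided sign-flip test, p = 0.00195, which is the smallest 10 pairs can give, adjusted to 0.00977 over the 10 members). This test was chosen after the isoform values had been seen. The 2 transcripts differ in only 45 and 96 of their 11612 and 11663 bases, all before the coding sequence, so few reads separate them.

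Within WT cells the share of the downstream CDK6 form also moved with time. It was 73.5, 77.7, 63.6 and 64.7% in the UT, CD3_CD28, CD3_CD28_TSP1 and TSP1 libraries at 1 h, 71.9, 71.2 and 57.7% in the 3 treated libraries at 3 h, and 49.3, 52.2 and 57.1% at 6 h. All 3 values at 6 h were below all others, while the upstream form stood at 153 ± 32.7 CPM at 1 h (SD, n = 4) and at 490 ± 32.6 CPM at 6 h (n = 3). In CD47- cells the upstream form stood at 222 ± 60.5 CPM at 1 h, 423 ± 41.3 at 3 h, when WT cells had 184 ± 58.3, and 483 ± 91.8 at 6 h. In CD47- cells the share was 90.4, 84.1 and 85.6% on average at 1, 3 and 6 h.

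CDKN2C showed the converse. The transcript from its upstream promoter, ENST00000396148, fell from a mean count of 1006 in WT to 418.8 in CD47- cells (log2 difference -1.29, adjusted p = 3.52e-06 by edgeR). The transcript from the downstream promoter, ENST00000371761, had mean counts of 765.7 and 664.8 (log2 difference -0.27, adjusted p = 0.304). That pooled value averaged hours of opposite sign, as the downstream form was at 32.2 ± 2.13 CPM in WT and 38.2 ± 2.04 in CD47- cells at 1 h (SD, n = 4), but at 34.7 ± 2.69 and 21.0 ± 4.54 at 3 h and at 32.1 ± 2.06 and 19.1 ± 1.82 at 6 h (n = 3). The upstream form was lower in CD47- cells at each hour, at 33.2 and 18.4, 52.7 and 21.4, and 46.0 and 12.7 CPM. Both encode the same 168 residues from start sites 1539 bases apart, and here 1194 and 113 bases belong to 1 form alone. The downstream form held 43.8 ± 6.15% of CDKN2C counts in WT and 59.4 ± 8.76% in CD47- cells, higher in 10 of 10 pairs (exact sign-flip test, adjusted p = 0.00977), with ranges of 36.7 to 56.2% and 45.5 to 71.9% that overlapped. CCNE2 gave a smaller shift, with the leading form ENST00000308108 at 88.6% in WT and 85.4% in CD47- cells (lower in 9 of 10 pairs, exact sign-flip test, adjusted p = 0.0391). In the other 7 members the adjusted p of the leading form's share was 0.239 or more.

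**Figure D3:**
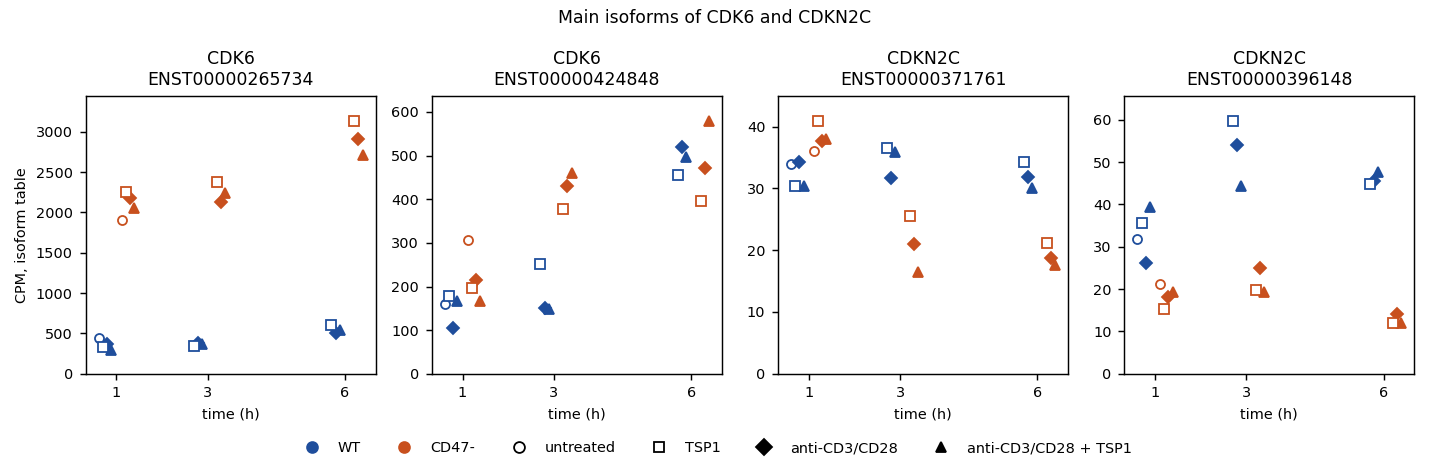
Estimated CPM of the 2 main transcripts of CDK6 and of CDKN2C in each of the 20 libraries, by line and hour. The downstream CDK6 form lies at 293 to 608 CPM in WT cells and at 1910 to 3130 CPM in CD47- cells, while the ranges of the upstream form overlap.

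Ratios of paralogs were taken within each library as differences of log2(CPM + 0.5), which draws ratios of scarce genes towards 0. The log2 ratio of CDK6 to CDK4 was 3.27 ± 0.246 in WT and 5.15 ± 0.338 in CD47- cells, 1.88 higher (SD of the 10 paired differences 0.529, 10 of 10 pairs, exact sign-flip test, adjusted p = 0.00488 over 5 ratios). The log2 ratio of CCND2 to CCND3 was -5.99 ± 0.866 and -3.26 ± 0.759, 2.73 higher (SD 0.990, 10 of 10 pairs, adjusted p = 0.00488 by the exact sign-flip test). With a pseudocount of 0.1 or 2 in place of 0.5, the latter difference was 2.96 or 2.17. Both ratios moved towards CDK6 and CCND2 in every pair of libraries. The ratio of CDKN2C to CDKN2D fell from 0.38 to -0.29, a log2 difference of -0.67 (lower in 9 of 10 pairs, exact sign-flip test, adjusted p = 0.00651). The ratio of CCNE2 to CCNE1 differed by -0.18 (SD 0.405, adjusted p = 0.256 by the exact sign-flip test), a mean over hours of -0.02, 0.15 and -0.73 at 1, 3 and 6 h. That of CDKN1A to CDKN1B differed by -0.02 (SD 1.31). It was negative at 1 h (mean -0.90) and positive at 6 h (1.69), so its mean over hours was near 0.

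Levels of different genes were compared per transcript length, as TPM (counts divided by transcript length and scaled to a fixed total) computed from the isoform counts. In WT cells the order of the mean levels was CCND3 (76.8 ± 22.0), CDK6 (53.8 ± 19.7), CDKN2C (48.8), CDKN2D (43.2), CDK4 (39.4), CDKN1B (31.4), CCNE2 (28.2), CDKN1A (9.71), CCNE1 (7.11) and CCND2 (0.292). Only the last step, from CCNE1 to CCND2, separated neighbours whose ranges over the 10 libraries did not overlap. In CD47- cells CDK6 came first at 253 ± 41.3 TPM, clear of CCND3 (76.5), and CCND2 (2.46) was again last. CCNE2 (23.0) and CCNE1 (6.08) were the other neighbours whose ranges did not meet. With the length of the longest transcript in place of isoform lengths, 6 of 10 members kept their place in each line.

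The second comparison followed the members from 1 h to 3 and 6 h in each line, with treatment effects of each line in the same fit. In WT cells 5 members were called at 6 h against 1 h, 2 higher and 3 lower (50.5% of all genes, 25.7% higher and 24.8% lower). In CD47- cells 9 were called, 3 higher and 6 lower (53% of all genes, 26% higher and 27% lower). The changes differed between the lines for 8 members, 4 in each direction, while 16.6% of all genes differed (6.46% more positive in CD47- cells, 10.2% more negative). Of the genes called for that difference, 38.9% were more positive, and 51.5% with upper-quartile scaling. CDKN1A is counted among the members called in both lines and for the difference, and nothing is read from its calls. At 6 h against 1 h the median log2 change of the members was -0.08 in WT and -0.49 in CD47- cells, and that of all genes was -0.0031 and -0.0034.

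**Figure D4:**
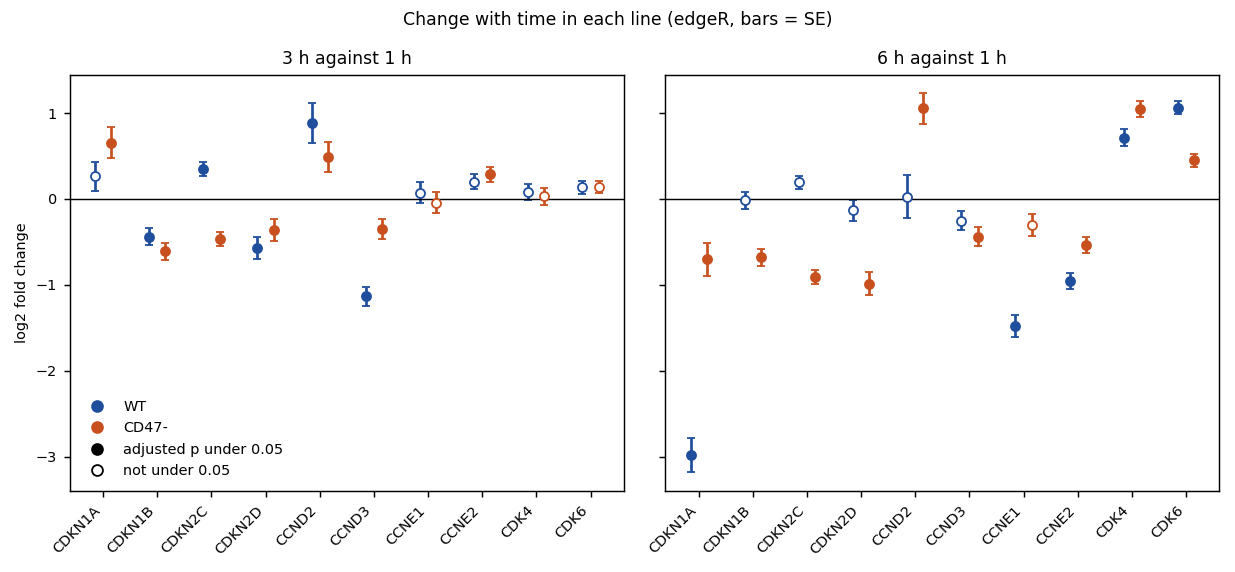
Log2 change from 1 h to 3 h and from 1 h to 6 h for each member in WT and CD47- cells, with bars of 1 SE. At 6 h CDKN1A stands at -2.98 in WT and -0.70 in CD47- cells, whereas CDKN2C stands at 0.19 and -0.91.

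CDKN1A was low at 6 h in WT cells. Its WT values at 1 h were 12.7 CPM in UT, 35.9 in CD3_CD28, 39.5 in CD3_CD28_TSP1 and 15.6 in TSP1 cells, those at 3 h were 49.5, 48.7 and 15.1 CPM in the 3 treatments, and those at 6 h were 3.38, 4.602 and 3.00 CPM. All 3 treatments ended low at 6 h, whatever their level before. In CD47- cells the values were 9.46, 10.6, 11.03 and 7.42 CPM at 1 h, 17.0, 14.7 and 13.7 CPM at 3 h and 6.47, 6.02 and 5.28 CPM at 6 h, with the treatments of an hour closer together than in WT cells. The log2 change from 1 to 6 h was -2.98 (SE 0.198) in WT and -0.70 (SE 0.192) in CD47- cells, a difference of 2.28 (SE 0.275). Antibody libraries at 1 h, whose values chose CDKN1A, enter these changes, so no p is given. CDKN1B had a log2 change of -0.02 at 6 h in WT cells (SE 0.0978) and fell by 0.68 on the log2 scale in CD47- cells (adjusted p = 5.99e-05), a difference of -0.66 (adjusted p = 0.006).

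The INK4 genes fell in CD47- cells. CDKN2C read 68.9, 62.1, 71.8 and 68.4 CPM in the UT, CD3_CD28, CD3_CD28_TSP1 and TSP1 libraries of WT cells at 1 h, 84.1, 78.8 and 95.0 CPM at 3 h and 77.0, 76.4 and 77.8 CPM at 6 h. In CD47- cells it read 57.9, 56.4, 57.8 and 57.8 CPM at 1 h, 44.2, 36.2 and 44.3 CPM at 3 h and 31.5, 28.8 and 31.5 CPM at 6 h. The 3 sets of CD47- values did not overlap and stepped down, whereas every WT value at 3 and 6 h was above the highest at 1 h. The log2 change from 1 to 6 h was 0.19 (SE 0.0779, adjusted p = 0.0528) in WT and -0.91 (SE 0.0804, adjusted p = 5.39e-07) in CD47- cells, and the difference was -1.10 (SE 0.112, adjusted p = 3.17e-05 by edgeR). CDKN2D changed by -0.13 in WT and by -0.98 in CD47- cells, a difference of -0.85 (adjusted p = 0.00633).

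Among the D-type cyclins, CCND2 rose with time in CD47- cells. It read 9.49, 10.9, 8.17 and 9.59 CPM in the UT, CD3_CD28, CD3_CD28_TSP1 and TSP1 libraries at 1 h, 11.2, 19.0 and 10.9 CPM at 3 h and 19.4, 21.4 and 19.0 CPM at 6 h. All values at 6 h were above all values at 1 h, and the log2 change was 1.05 (SE 0.175, adjusted p = 0.000173). In WT cells CCND2 ran from 1.14 to 3.35 CPM and was highest at 3 h (2.12 to 3.35 CPM, log2 change 0.89 from 1 h). Its log2 change in WT cells at 6 h was 0.03 (SE 0.251), and the difference between the lines at 6 h was 1.03 (SE 0.307, adjusted p = 0.0356 by edgeR). That call was lost when any of 9 libraries was left out and with limma voom (adjusted p = 0.105). CCND3 dipped at 3 h in WT cells, from 177, 185, 224 and 207 CPM at 1 h to 85.2, 90.1 and 105 CPM, and stood at 172, 178 and 165 CPM at 6 h. In CD47- cells it read 176, 150.2, 162.5 and 143.5 CPM at 1 h, 131, 97.6 and 129 CPM at 3 h and 110, 122 and 104 CPM at 6 h, when every value was below all values at 1 h.

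The E-type cyclins ended lower at 6 h in WT cells. CCNE1 read 14.8, 14.2, 16.3 and 12.7 CPM in WT cells at 1 h, 17.1, 14.2 and 14.1 CPM at 3 h and 5.05, 5.55 and 4.875 CPM at 6 h. In CD47- cells it read 8.32, 9.43, 9.03 and 8.44 CPM at 1 h, 10.25, 7.06 and 8.97 CPM at 3 h and 7.17, 6.71 and 7.88 CPM at 6 h. The WT values at 6 h were below every CD47- value, though WT cells had started higher. The log2 change from 1 to 6 h was -1.48 (SE 0.129, adjusted p = 5.52e-07) in WT and -0.31 (SE 0.128, adjusted p = 0.0574) in CD47- cells, and the difference was 1.17 (SE 0.181, adjusted p = 0.000763 by edgeR). CCNE2 fell in both lines, by 0.95 in WT and by 0.53 in CD47- cells on the log2 scale. The difference of 0.42 (SE 0.128, adjusted p = 0.0399) lost its call when any of 11 libraries was left out.

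The kinases rose. CDK6 read 628, 482, 469 and 521 CPM in WT cells at 1 h, 525, 508.5 and 583 CPM at 3 h and 1014, 1015 and 1039 CPM at 6 h. In CD47- cells it read 2235, 2413, 2239 and 2490 CPM at 1 h, 2445, 2727 and 2680 CPM at 3 h and 3223, 3170 and 3354 CPM at 6 h. In each line the values at 6 h were above all earlier ones, with log2 changes of 1.06 (SE 0.0739) in WT and 0.45 (SE 0.0731) in CD47- cells that differed by -0.61 (SE 0.103, adjusted p = 0.00141 by edgeR). CDK4 rose by a log2 change of 0.71 (SE 0.0956) in WT and 1.05 (SE 0.0956) in CD47- cells, and their difference of 0.33 (SE 0.134) was not called by edgeR (adjusted p = 0.11). It was called with limma voom (0.41, adjusted p = 0.0379), with upper-quartile factors (0.39, adjusted p = 0.0498) and without the shallow CD47- library (adjusted p = 0.0404).

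Without that library, 7 members were called in WT cells at 6 h against 1 h, 10 in CD47- cells and 9 for the difference between the lines. CDKN1A is in each of these counts, with nothing read from its calls. The calls gained were CDKN2C (adjusted p = 0.0168) and CCND3 (-0.26, adjusted p = 0.00372) in WT cells and CCNE1 in CD47- cells (adjusted p = 0.0299), each with a log2 change that moved by less than its SE. Of 7 alternative settings of the fit, CCND3 in WT cells was called in 5 and CDKN2C in WT cells in 1. CCNE1 in CD47- cells was called in 2, limma voom (adjusted p = 0.0214) and a time effect shared by both lines.

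At 3 h against 1 h, 5 members were called in WT cells, 2 higher and 3 lower (34.3% of all genes, 16.9% higher and 17.4% lower), and 7 in CD47- cells, 3 higher and 4 lower (38% of all genes, 18% higher and 20.1% lower). In WT cells CCND2 (log2 change 0.89) and CDKN2C (0.35) rose, and CCND3 (-1.14), CDKN2D (-0.57) and CDKN1B (-0.44) fell. In CD47- cells CCND2 (0.49) and CCNE2 (0.28) rose, and CDKN1B (-0.61), CDKN2C (-0.47), CDKN2D (-0.36) and CCND3 (-0.35) fell. CDKN1A stood at 0.65 there, given as a description, and its call is counted with nothing read from it. Without the shallow CD47- library, CCNE2, CDKN1B and CDKN2C were still called, and CCND2 (0.21, adjusted p = 0.255), CCND3 (-0.15, adjusted p = 0.132) and CDKN2D (-0.19, adjusted p = 0.243) were not. CCND2, CCND3 and CDKN2D also lost their calls with limma voom (adjusted p = 0.0906, 0.104 and 0.0919). Of 20 libraries left out in turn, 8, 3 and 13 ended their calls. With upper-quartile factors CDKN2D was not called either (adjusted p = 0.0662 by edgeR). A difference between the lines in this step was called for 2 members, CCND3 (difference 0.78, SE 0.159, adjusted p = 0.0168 by edgeR) and CDKN2C (-0.82, SE 0.111, adjusted p = 0.00158), against 4.28% of all genes (2.02% more positive, 2.25% more negative). Without the shallow library these differences were 0.98 and -0.73, both called, but the CCND3 difference lost its call when any of 5 other libraries was left out (adjusted p of up to 0.0695). CCND2 in WT cells lost its call with limma voom (adjusted p = 0.0702) and without the CD3_CD28 library at 3 h (adjusted p = 0.0538). The CD47- change of CCNE2 at 3 h lost its call when any of 4 other libraries was left out, that of CDKN1A when any of 2, and CCNE2 in WT cells (0.20, adjusted p = 0.0948) was called without the shallow library (adjusted p = 0.00736).

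The third comparison asked whether TSP1 altered the members. In activated cells, CD3_CD28_TSP1 was set against CD3_CD28 at 3 matched hours, and no member was called in either line (0% of all genes tested were called). The largest log2 changes were 0.14 for CCND3 in WT (2 SE interval -0.09 to 0.36) and -0.24 for CCNE2 in CD47- cells (-0.43 to -0.06, adjusted p = 0.459). Without the shallow library, which is 1 of the 3 CD3_CD28_TSP1 libraries of CD47- cells, no member was called and that of CCNE2 was -0.09 (-0.22 to 0.04). For CDKN1A the changes were 0.13 (-0.22 to 0.48) in WT and -0.08 (-0.45 to 0.29) in CD47- cells. TSP1 alone against untreated cells rests on 1 untreated library per line. The spread in that fit came from the other groups, so nothing is read from calls or their lack. The members lay between -0.39 and 0.32 in WT and between -0.23 and 0.17 in CD47- cells. By edgeR, 366 and 1771 genes had an unadjusted p under 0.05 for TSP1 on activated WT and CD47- cells and 1165 and 1406 for TSP1 alone, among them CCNE2 in activated CD47- cells and CDK6 in WT cells with TSP1 alone (log2 change -0.28, adjusted p = 0.683). DESeq2 called 1, 0, 1 and 3 genes, limma voom 0 in each, and edgeR with no low-count filter 84, 401, 250 and 540. The difference between the lines in the TSP1 effect on activated cells gave 0% of genes, with 393 at an unadjusted p under 0.05, and between -0.24 and 0.16 for the members.

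Activation was described for CDKN1A, whose rise was a reason for its place in the set. In WT cells, CD3_CD28_TSP1 stood above TSP1 at each hour, at 39.5 against 15.6 CPM at 1 h, 48.7 against 15.1 CPM at 3 h and 4.602 against 3.00 CPM at 6 h. In CD47- cells the pairs were 11.03 and 7.42, 14.7 and 13.7, and 6.02 and 5.28 CPM. The fitted log2 change was 1.299 (SE 0.187) in WT and 0.29 (SE 0.188) in CD47- cells, and it ran from 1.01 to 1.56 in WT cells and from 0.179 to 0.386 in CD47- cells over 27 settings. In WT cells the log2 difference was 1.31, 1.66 and 0.545 at 1, 3 and 6 h, which the fit took as 1 value. Against untreated cells, CD3_CD28 gave 1.496 (1.19 to 1.61 over 26 settings) in WT and 0.17 (0.0973 to 0.61) in CD47- cells. Each value rests on 1 untreated library of that line, at 1 h, which none of these settings could leave out. Against untreated cells, the other 9 members lay between -0.38 (CDK6) and 0.28 (CDK4) in WT cells. In CD47- cells they lay between -0.175 (CCND3) and 0.21 (CCNE1). For CD3_CD28_TSP1 against TSP1, these 9 lay between -0.30 (CDKN2D) and 0.51 (CCND2) in WT and between -0.30 (CCNE2) and 0.27 (CCND2) in CD47- cells. In this contrast 15 genes (0.0919% of those tested, all higher) were called in WT cells and 0% in CD47- cells, although 2636 reached an unadjusted p under 0.05 by edgeR there and DESeq2 also called 0. Of 6 early activation genes, 5 were called higher in WT cells (FOS 1.39, EGR1 2.03, EGR2 2.00, EGR3 1.79, CD69 2.04). These calls are not firm, as the 15 genes fell to 0 when any of 3 libraries was left out and ranged from 0 to 42 over the 20.

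The genes whose pattern was most like that of CDKN1A were named by the correlation of log2 CPM over the 20 libraries after each line's mean was subtracted, among 13150 genes. They were SEMA7A (r = 0.975), PPP1R16B (0.948), MICAL1 (0.944), GASAL1 (0.943) and IER3 (0.942). Among the members, CCNE1 had r = 0.883 (rank 42) and CCNE2 r = 0.844 (rank 92), and CDK6 ran opposite at -0.896. Within WT and CD47- libraries taken apart these were 0.917 and 0.574 for CCNE1, 0.894 and 0.821 for CCNE2 and -0.943 and -0.628 for CDK6, with CDKN1A itself more variable in WT cells. Libraries share treatments and hours, so these values describe this series only.

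Other genes of the pathway were counted from fixed lists. Between the lines, 6 of 13 tested other G1 regulators were called, 1 higher and 5 lower in CD47- cells (40.4% of all genes). Those with the smallest p were the kinase chaperone CDC37 (log2 difference -0.72), the phosphatase CDKN3 (-0.67), the p27 ubiquitin ligase subunit SKP2 (-0.32) and the CIP/KIP inhibitor CDKN1C (-0.97). Of 13 pocket protein and E2F genes 7 were called, 1 higher (RB1, 0.34) and 6 lower, with TFDP2 (-1.58), RBL1 (-0.44) and E2F1 (-0.45) among them. The median log2 differences of these lists were -0.21 and -0.23.

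The lists were also counted from 1 to 6 h, when 50.5% of all genes were called in WT and 53% in CD47- cells. Among the other G1 regulators 9 of 13 were called in WT cells (1 higher, 8 lower, median log2 change -0.32) and 8 in CD47- cells (1 higher, 7 lower, median -0.27), led by CDK2, the partner kinase of cyclin E, at -1.03 and -0.94. Among pocket protein and E2F genes 9 were called in WT cells (4 higher, 5 lower) and 11 in CD47- cells (3 higher, 8 lower), led by E2F2 (-1.39) and E2F8 (-1.05) in WT and E2F8 (-1.25) and E2F7 (-1.27) in CD47- cells. The change was called different between the lines (16.6% of all genes) for 2 other G1 regulators (CDKN3 -0.58, CKS1B -0.54) and 3 pocket protein and E2F genes (TFDP2 -0.76, E2F7 -0.86, RBL2 -0.50).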

How the data were processed

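RNA-seq of 20 libraries was analysed, 10 from WT and 10 from CD47- Jurkat cells. The authors deposited RSEM 1.3.3 expected counts per gene and per isoform (GENCODE v36), made from reads trimmed by Cutadapt 1.18 and mapped to hg38 in 2 passes of STAR 2.4.2a. The strand setting is not given in the sources used here. 2 columns in each table that belong to no sample were not used. The counts were rounded and tested with edgeR 4.0.16 (quasi-likelihood, TMM, filterByExpr with a minimum count of 10, Benjamini-Hochberg adjustment, threshold 0.05) in R 4.3.3, on totals of 16107921 to 31737616 per library. Lines were compared over 20 libraries. Time and treatment were fitted in 1 model of 12 coefficients with 8 residual degrees of freedom. Their effects were taken as additive on the log scale within a line. The tests were first tried on simulated data. Ratios and isoform shares were tested with an exact sign-flip permutation test over 10 pairs, each a WT and a CD47- library of 1 treatment and hour, with log2 values of CPM plus a pseudocount of 0.5. Gene positions are from GENCODE v44 (GRCh38), matched by identifier. DESeq2 1.42.0, limma voom 3.58.1, other scalings, filters and samples, and a term for hour between the lines, were alternatives. In fixed lists, the called genes with the smallest p were named. Members and lists were chosen with earlier results of these data known. Some items are not reported here.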

Additional observations from a re-analysis of the deposited data

Results flagged for a closer look

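These results were picked out because the change from 1 h to a later hour differed between WT and CD47- cells by edgeR's test of the difference itself. From 1 to 6 h the log2 change in CD47- cells minus that in WT cells was 1.17 for CCNE1, 1.03 for CCND2, 0.418 for CCNE2, -0.613 for CDK6, -0.661 for CDKN1B, -0.851 for CDKN2D and -1.10 for CDKN2C. From 1 to 3 h it was 0.784 for CCND3 and -0.817 for CDKN2C. CDKN1A, at 2.28 from 1 to 6 h, met the same rule. Values in this fit chose that gene, so its value is a description and nothing is read from its call.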

How the results depend on the processing

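Over all alternatives that did not leave out a library or pair, 687 values kept direction and call, 26 lost a call or fell, 53 gained one or rose, 10 changed sign and 4 moved. Leaving out a library or pair gave 1959, 102, 29, 29 and 3. The line differences of CCND2, CDK6, CDKN2C, CDKN1B and CCNE2 kept their calls in all 20 leave-outs. The pairs matched for treatment and hour share only those labels. With them as a replicate block 8957 genes and 6 members were called between the lines, with CDKN1A at -0.73, and without the pairing no call on a ratio changed. Log2 values changed sign for CCND3 between the lines at 3 h alone (0.36), CCNE1 and CDKN1A at 6 h alone (0.50, 0.69) and CDKN2D at 1 and 3 h alone (0.057, 0.24). They also did so for CCNE1 at 3 h in CD47- cells with a time effect shared by both lines (0.024) or upper-quartile factors (0.0067), CDKN1B at 6 h in WT cells with voom (0.0045), and CDKN2C in WT cells with a shared time effect (-0.087 at 3 h, -0.37 at 6 h).

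Genes called between the lines were 4067 in the 6 antibody pairs and 2706 in the 4 others, where 3 members were called, against 10 at 6 h alone. A shared time effect gave 8 members at 6 h in WT cells, and CD47- libraries alone gave 3 at 3 h. DESeq2 called 2 and 7 genes for CD3_CD28 against UT (CD47-, WT), 54 for CD3_CD28_TSP1 against TSP1 in WT cells (voom 28, shared time effect 2, WT alone 5) and 4 for its difference between the lines, 3 and 1 for TSP1 against UT, 1 for TSP1 on activated WT cells and 1069 for the difference at 3 h. WT libraries alone gave 59 for CD3_CD28 and 11 for TSP1 against UT. With no low-count filter the counts were 256 and 271 (CD3_CD28 against UT), 538 and 201 (CD3_CD28_TSP1 against TSP1), 540 and 250 (TSP1 against UT), 401 and 84 (TSP1 on activated cells), each CD47- then WT, and 1397, 255 and 140 for the differences between the lines at 3 h, with activation and with TSP1. With the longest transcript's length 6 members kept their place in the order of levels in each line. The cause of these shifts was not tested.

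Leaving out 1 library at a time gave 0 to 6 and 0 to 226 genes for CD3_CD28 against UT (CD47-, WT), 0 to 42 for CD3_CD28_TSP1 against TSP1 in WT cells, 0 to 79 for TSP1 against UT in WT cells, 0 to 1 for TSP1 on activated CD47- cells, and 169 to 1066 (3 h), 1459 to 4273 (6 h), 0 to 9 (activation) and 0 to 1 (TSP1) for the differences between the lines. Members called ranged from 3 to 7 at 3 h in CD47- cells and from 1 to 2 for the difference at 3 h. Log2 values ranged from -0.22 to 0.15 for the ratio of CDKN1A to CDKN1B, at 6 h in WT cells from -0.11 to 0.11 (CCND2), -0.13 to 0.044 (CDKN1B) and -0.26 to 0.022 (CDKN2D), and at 3 h from -0.15 to 0.088 (CCNE1, CD47-), -0.031 to 0.19 (CCNE1, WT) and -0.053 to 0.15 (CDK4, CD47-). For the difference at 3 h they ranged from -0.22 to 0.016 (CCNE1), -0.031 to 0.24 (CCNE2), -0.17 to 0.071 (CDK4) and -0.047 to 0.053 (CDK6).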
